A study of Mus musculus with 96 samples.

Results

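Input chromatin, the crosslinked and sonicated DNA sequenced without any antibody, was followed over the 42403 genomic regions that bind GATA6 in mouse cells, all of them used. It comes from 15 of the 96 libraries of the series, and the comparison is of cells after 96 h of doxycycline (day 4) with the same cells before it, with 8 h, 16 h, day 1 and day 2 as steps and XEN cells as the end point. The ES cells were KH2 cells (C57BL/6 x 129/Sv) with a Dox-inducible gata6 cassette, untreated or given 1 µg/mL Dox. They were grown on mouse fibroblast feeders that were adsorbed before fixation, and chromatin was fixed with DSG and then formaldehyde. Every ES group, the untreated one too, carried the cassette, so there is no library from cells without it, and which clone gave which library is not stated. The XEN cells were the X10 line (CD1), derived from the embryo and untreated, so they differ from the ES cells in strain, line and culture as well as in cell type. Labels name 2 libraries per ES group and 3 for XEN cells. They do not say that these came from separate cultures, so any p-value here measures only the spread between these libraries.

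GATA6 is a zinc finger transcription factor that drives the primitive endoderm (PrE), the extraembryonic lineage that lines the blastocoel and later makes basement membrane and yolk sac. SOX17 is an HMG-box factor of the same lineage, and XEN cells are its cultured counterpart. An input library is made as the background of a ChIP experiment, but its coverage is not flat: crosslinked chromatin that is nucleosome-poor is known to shear and be recovered more readily than compact chromatin, and the coverage also follows copy number, base composition and mappability. In bulk chromatin, more cells with an open region and a more open region in each cell cannot be told apart.

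The deposited values are RPM (library-size scaled reads, reads per 1e6 of the library), pooled into a single column per group. The columns could be taken apart into whole reads of 14 libraries, a deeper and a shallower one per group, each given below in that order. For XEN cells, where a label marks the third library as another of the second, the column held 2. The deposited input column before Dox turned out to be the mean of 6 libraries, those of 8 h and 16 h included, and only the part that belongs to cells before Dox was used for it. A level is RPM per kb, summed over a set of regions and divided by their summed length (median width of a region 524 bp, from 171 to 5380 bp). A ratio is the mean level at day 4 over that before Dox, with its error as SD propagated from n = 2 libraries in each group, and with the lowest and the highest of the 4 ratios between single libraries as its range. With 2 libraries against 2, the smallest two-sided p of an exact permutation test is 0.333, so no ratio of a set could pass 0.05, and differences are described by whether the libraries overlap.

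The windows that follow show the DNA at the centre of regions at either end of the change, 3 with the highest gain and 2 among those with the highest loss of input at day 4, so that the difference in base composition between them can be read. They are 200 bases each, from RefSeq's GRCm38.p6 (mm10), plus strand: chr8:11309341-11309540 in an intron of Col4a1 near Col4a2, chr8:126609932-126610131 between genes near Irf2bp2, chr4:140690961-140691160 between genes near Rcc2, chr1:36939797-36939996 at the start site of Tmem131 and chr2:152029446-152029645 between genes near Slc52a3. Capitals mark AGATAA and, from the other strand, TTATCT, a core motif that GATA factors bind.
Col4a2 (higher input at day 4): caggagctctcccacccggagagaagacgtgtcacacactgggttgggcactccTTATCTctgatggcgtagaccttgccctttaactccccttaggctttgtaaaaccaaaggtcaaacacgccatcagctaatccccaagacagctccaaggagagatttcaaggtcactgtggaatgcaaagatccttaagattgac
Irf2bp2 (higher input at day 4): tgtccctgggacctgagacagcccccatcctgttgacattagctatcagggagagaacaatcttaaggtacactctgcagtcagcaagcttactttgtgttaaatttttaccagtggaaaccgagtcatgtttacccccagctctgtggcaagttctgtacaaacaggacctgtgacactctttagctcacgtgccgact
Rcc2 (higher input at day 4): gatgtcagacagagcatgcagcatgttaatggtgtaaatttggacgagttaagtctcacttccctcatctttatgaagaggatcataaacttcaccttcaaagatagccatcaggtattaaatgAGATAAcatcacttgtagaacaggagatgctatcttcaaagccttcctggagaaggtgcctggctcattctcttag
Tmem131 (lower input at day 4): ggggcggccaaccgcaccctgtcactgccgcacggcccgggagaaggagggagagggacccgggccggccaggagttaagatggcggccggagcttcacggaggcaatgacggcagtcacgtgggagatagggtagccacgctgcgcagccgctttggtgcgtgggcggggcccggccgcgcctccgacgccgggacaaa
Slc52a3 (lower input at day 4): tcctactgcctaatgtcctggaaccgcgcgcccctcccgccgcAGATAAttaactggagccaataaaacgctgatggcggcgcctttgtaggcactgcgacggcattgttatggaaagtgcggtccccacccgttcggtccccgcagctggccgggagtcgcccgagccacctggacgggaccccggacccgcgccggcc
The windows from the regions of higher input are 50%, 48% and 41% G and C, and those of lower input 72% and 66%. An AGATAA on either strand was in 3 of these 5 windows and in 46.3% of the windows of all 42403 regions. Among regions past 2-fold higher at day 4 the share was 52.0%, and among those past 2-fold lower 41.1%. By GATA6 binding at day 4 it went the other way, 47.8% in the lowest quintile and 43.6% in the highest. The motif shares were not matched for GC content, and the change itself went with it. Past 2-fold higher were 18.5% of regions in the quintile poorest in G and C and 2.50% in the richest. Past 2-fold lower were 2.44% and 11.1%.

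The sizes of the 14 libraries, in units of 1e6 reads, were 5.42 to 27.4. Of these reads 1.79% to 2.46% lay on the regions, and the widest Wilson 95% interval, that of the shallowest library, ran from 1.981% to 2.005% and covers counting error only. A region held a median of 2 to 10 reads per library, so that single regions are imprecise and sets of regions are the better measured unit. The shallower libraries before Dox and of day 1 stood apart in base composition: the quintile of regions richest in G and C had 6.76 and 6.35 times the level of the poorest quintile there, against 1.52 to 3.26 times in the other 12 libraries. Beyond this, chromosome 8 was at 1.34 to 1.48 times the deeper library before Dox in 5 of the 12 ES libraries and at 0.938 to 1.00 times in the other 7. Markers of the feeder cells are given with the gene lists.

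Over all regions together input was nearly level. It stood at 0.703 and 0.825 RPM per kb before Dox and at 0.794 and 0.863 at day 4, which overlap, and the ratio was 1.08 ± 0.14 (SD, range 0.962 to 1.23). XEN cells were at 0.890 and 0.914, above both libraries before Dox and both of day 4. By region, 10.3% were past 2-fold higher and 5.33% past 2-fold lower at day 4 on the scale of log2(RPM + pseudocount). This has to be read against the spread between libraries of the same group: 28.1% of regions were past 2-fold in either direction between both libraries before Dox, 26.8% between both of day 4, and 8.94% between the deeper pair of day 2. The groups did not overlap, with both libraries of day 4 above both before Dox, at 23.8% of regions, and with both below at 14.1%. With 2 libraries against 2, separation in either direction has an exact permutation p of 0.333, so much of it is expected without any difference.

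Input at day 4 was ordered by GATA6. Regions were put in quintiles by GATA6 ChIP RPM per kb at day 4. GATA6 in the highest quintile was 0.670 RPM per kb before Dox, from a single library, and 8.55 at day 4. In the lowest it was 0.633 and 0.625. The sorting used the day 4 signal, so a high value at day 4 in the highest quintile was given by it. In the lowest quintile, input was 0.621 and 0.635 RPM per kb before Dox and 0.479 and 0.526 at day 4, and in XEN cells 0.515 and 0.510. Both later groups were below both libraries before Dox, with a ratio at day 4 of 0.800 ± 0.055 (SD, range 0.754 to 0.847). In the highest quintile, input was 0.768 and 0.993 before Dox, 1.14 and 1.22 at day 4, and 1.26 and 1.33 in XEN cells. Here day 4 was above both libraries before Dox, and the ratio was 1.34 ± 0.25 (range 1.15 to 1.58). The quintiles between them stood in order, at 0.880, 1.03 and 1.14. Of the regions in the highest quintile 19.4% were past 2-fold higher and 0.849% past 2-fold lower, and of those in the lowest quintile 4.69% and 11.0%, beside the 10.3% and 5.33% of all regions.

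SOX17 gave the same order. Input in the lowest quintile of SOX17 ChIP at day 4 was 0.622 and 0.635 before Dox and 0.478 and 0.523 at day 4, a ratio of 0.797 ± 0.052 (range 0.753 to 0.842). In the highest quintile it was 0.748 and 0.922 before Dox and 1.11 and 1.18 at day 4, a ratio of 1.37 ± 0.21 (range 1.21 to 1.58). The quintiles of the 2 factors hold many of the same regions, since GATA6 and SOX17 per kb at day 4 had a Spearman rho of 0.90 over the 42403 regions, so their parts cannot be told apart here. Within the highest GATA6 quintile, the 7619 regions of the SOX17 class, those where the authors called a SOX17 peak, had a ratio of 1.39 ± 0.20 and the 861 without one 0.974 ± 0.50, and these ranges overlap. Against the deeper library before Dox alone they were 1.54 and 1.48, so the shallower library decided the value of the 861.

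**Figure D1:**
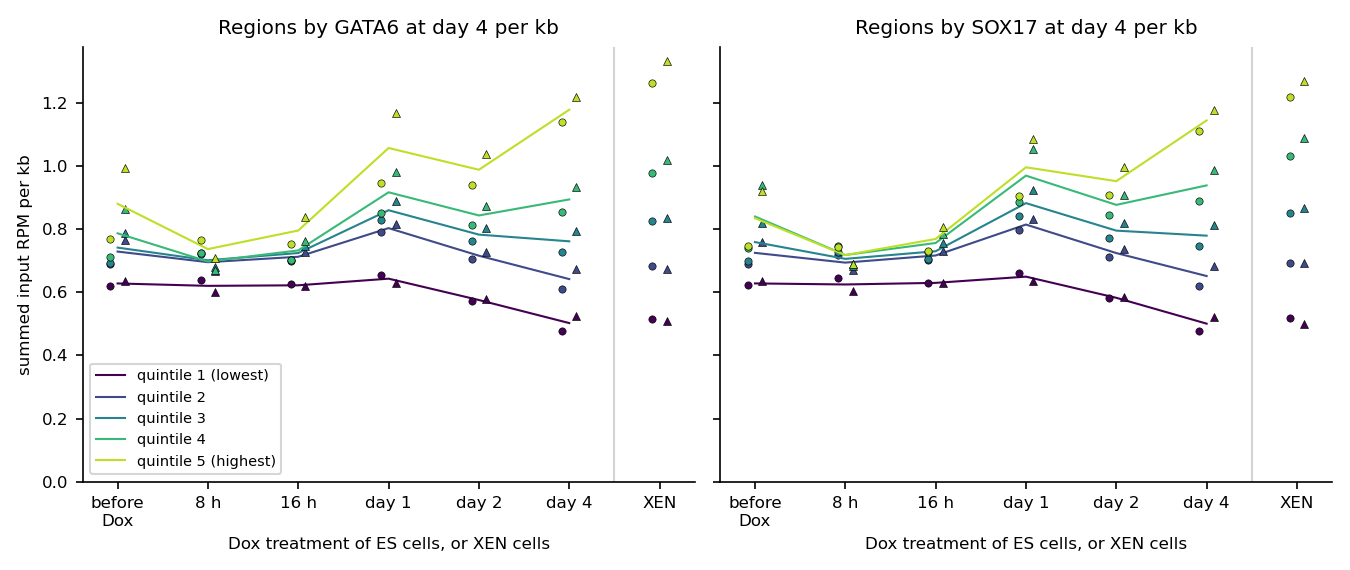
Input level (RPM per kb, vertical axis) in quintiles of GATA6 and of SOX17 ChIP at day 4, by group. Circles are the deeper and triangles the shallower library of a group, and lines join the means of the ES groups; the highest quintiles end at 1.14 and 1.22 (GATA6) and the lowest at 0.479 and 0.526.

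Several properties of the libraries moved with this order. The ratios themselves depended on GC content: all regions ran from 1.53 in the quintile poorest in G and C to 0.838 in the richest, the lowest GATA6 quintile from 1.11 to 0.609 and the highest from 2.01 to 1.00. The direction in the lowest GATA6 quintile thus turned with GC content. Over the 42403 regions the change in input had a Spearman rho of -0.32 with GC content and of 0.33 with GATA6 at day 4. For the change between the deeper libraries these were -0.18 and 0.37, and between the shallower ones -0.29 and 0.19. Those 2 changes had a rho of only 0.19 with each other. ChIP and input are made from the same chromatin, and in the lowest GATA6 quintile the input level at day 4 was 80.5% of the GATA6 level, against 13.8% in the highest. In the lowest SOX17 quintile it was 117% of the SOX17 level. With quintiles made from ChIP minus input, the ratio of the highest quintile divided by that of the lowest was 1.56 for GATA6 and 1.58 for SOX17, beside 1.67 and 1.72 as first defined. With GATA6 measured in XEN cells, whose ChIP libraries are none of those compared, it was 1.62. Within each quintile of regions by GC content the highest GATA6 quintile was again the higher, by 1.65 to 1.92 times, and in each of them the contrast between the quintiles was larger in both libraries of day 4 than in both before Dox. Without chromosome 8 the value was 1.67.

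The contrast was larger with more time on Dox. Highest over lowest GATA6 quintile, with GC quintiles weighted equally, was 1.16 and 1.37 before Dox, 1.14 and 1.14 at 8 h, and 1.16 and 1.28 at 16 h. It was 1.33 and 1.62 at day 1, 1.57 and 1.67 at day 2, and 2.30 and 2.14 at day 4. XEN cells stood at 2.29 and 2.42. Day 1 overlapped with the libraries before Dox, day 2 was above both of them, and day 4 lay above every earlier library and overlapped with XEN cells. Over the 12 ES libraries the contrast without GC weights had a Pearson r of 0.88 with hours of Dox (permutation p = 0.00056, two-sided, adjusted over 8 such relations 0.00064) and a Spearman rho of 0.78 (permutation p = 0.0045, adjusted 0.00514). Without both libraries of day 4, the farthest in time, r was 0.66 (n = 10, permutation p = 0.0478). With the GC weights r was 0.93 (permutation p = 0.00024, adjusted 0.000384), and 0.78 without day 4 (n = 10, permutation p = 0.0137). Both libraries of a group share their time, so the 12 points are not 12 separate times. The quintiles were drawn from ChIP at day 4, so the last point is not independent of them.

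The course was closer to a line for the SOX17 class, 18861 regions, over the 23542 without a SOX17 peak. The ratio of their input levels, unweighted, was 1.01 and 0.977 before Dox, 1.03 and 1.03 at 8 h, 1.06 and 1.09 at 16 h, 1.09 and 1.10 at day 1, and 1.18 and 1.21 at day 2. Day 4 reached 1.35 and 1.29, and XEN cells stood at 1.32 and 1.31. The means of the groups stood in the order of time. Pearson r with hours was 0.98 and Spearman rho 0.98, each with a permutation p of 2e-05, the smallest that these resamples can give, and adjusted values of 8e-05 and 0.00016. Without both libraries of day 4 r was 0.98 (n = 10, permutation p = 2e-05). The SOX17 class was defined with ChIP from these cells, and time is shared by both libraries of a group, so the 12 points are not 12 separate times.

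**Figure D2:**
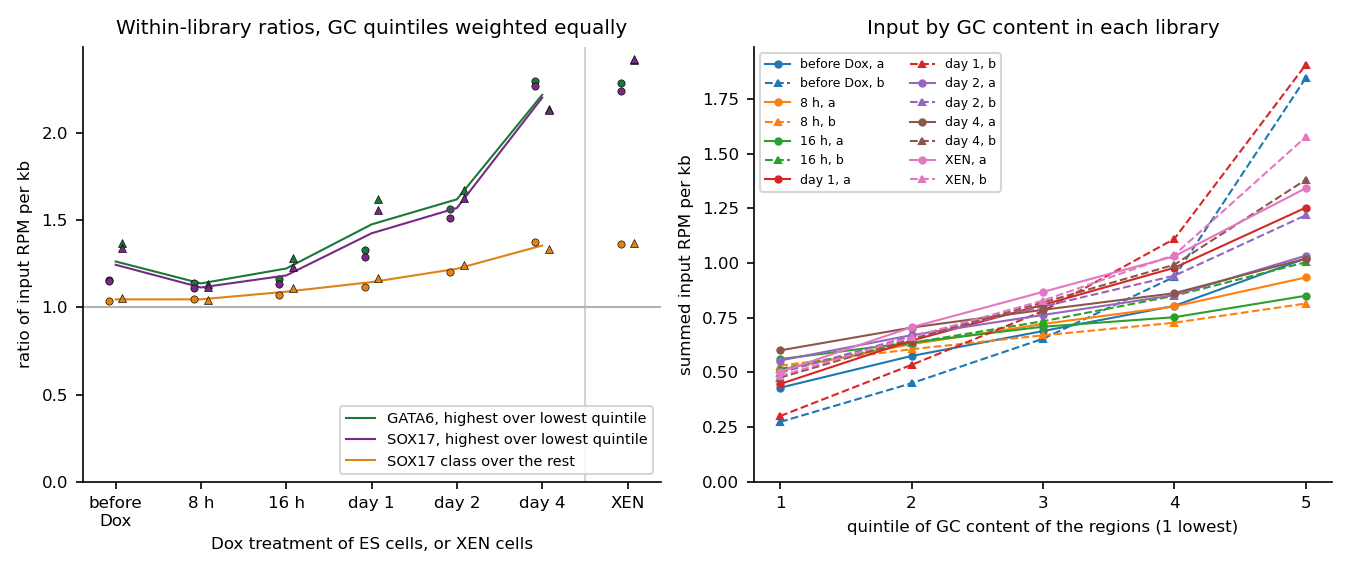
Contrasts of input, GC quintiles weighted equally, between sets of regions (vertical axis, ratio of RPM per kb) for each library in order of hours of Dox, with XEN cells, and input level by GC quintile. Circles are the deeper and triangles the shallower library; the SOX17 class over the rest goes from 1.04 and 1.05 before Dox to 1.37 and 1.34 at day 4.

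Chromatin that was shut before induction held more input at day 4. The table puts regions in classes of accessibility in undifferentiated cells. In the 26003 closed regions input was 0.550 and 0.504 RPM per kb before Dox and 0.731 and 0.720 at day 4, without overlap, and the ratio was 1.38 ± 0.086 (SD, range 1.31 to 1.45). The 13248 regions of moderate accessibility had 0.836 and 1.05 before Dox and 0.830 and 0.966 at day 4, which overlap, a ratio of 0.953 ± 0.18. In the 3152 accessible regions the levels were 1.21 and 2.13 before Dox and 1.09 and 1.42 at day 4. Their ratio was 0.752 ± 0.32 (range 0.511 to 1.17), and against the deeper library before Dox alone it was 1.04, so the shallower library decided that value. Accessible regions were the richest in G and C, with a median of 51.0% against 43.8% in closed ones, which is where that library was high. With GC quintiles weighted equally, accessible over closed went from 1.72 and 2.23 before Dox to 1.49 and 1.43 at day 2, and to 1.15 and 1.27 at day 4 and 1.13 and 1.27 in XEN cells. Against hours of Dox this weighted contrast had an r of -0.83 (permutation p = 0.0001, adjusted 0.000267) and a rho of -0.92 (permutation p = 0.00012, adjusted 0.00032), and without both libraries of day 4 r was -0.68 (n = 10, permutation p = 0.00574). Without the weights r was -0.42 (permutation p = 0.0953). Here too both libraries of a group share their time.

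**Figure D3:**
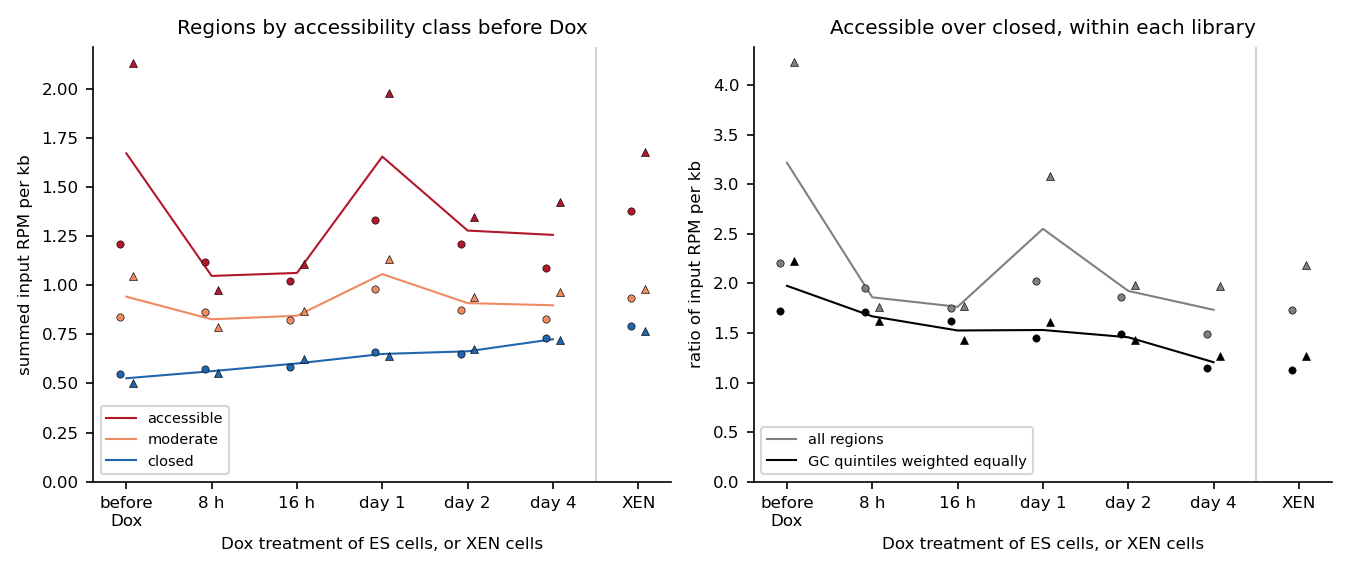
Left, input level (RPM per kb) in regions that were closed, moderate or accessible before Dox, by group; right, the ratio of accessible to closed regions in each library, over all regions and with GC quintiles weighted equally. Circles are the deeper and triangles the shallower library of a group and lines join the means of the ES groups; closed regions end at 0.731 and 0.720 at day 4, above both libraries before Dox.

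Sets defined by accessibility and binding together spanned ratios from 0.569 to 1.71. Closed regions of the highest SOX17 quintile (5470) held 0.591 and 0.559 RPM per kb before Dox and 0.997 and 0.972 at day 4, a ratio of 1.71 ± 0.073 (range 1.65 to 1.78), and 26.6% of them were past 2-fold higher. Closed regions of the lowest SOX17 quintile (4691) held 0.484 and 0.426 before Dox and 0.459 and 0.450 at day 4, a ratio of 1.00 ± 0.092. By GC quintile the latter ran from 0.736 to 1.25 and the former from 1.42 to 2.06. Accessible regions of the lowest quintile (605) held 0.973 and 1.16 before Dox and 0.519 and 0.693 at day 4. Their ratio was 0.569 ± 0.14 (range 0.449 to 0.713), with 26.9% of regions past 2-fold lower. Accessible regions of the highest quintile (767) had a ratio of 0.876 ± 0.45, whose range of 0.572 to 1.49 includes 1, and against the deeper library before Dox alone it was 1.33. The first of these 4 sets and the third do not overlap in their ranges, and the quotient of their ratios was 3.01.

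Other classes deposited with the regions also differed in their ratios. Late GATA6 regions, bound only after the first days, had a ratio of 1.31 ± 0.077, early ones, bound at once and for good, 1.23 ± 0.11, and transient ones, bound and then released, 0.836 ± 0.18. These clusters were made by the authors from ChIP divided by input, so their order is not independent of input. Regions where pluripotency factors bind only after induction stood at 1.29 ± 0.16, those without such binding at 1.08 ± 0.16 and those bound before Dox at 0.958 ± 0.10. By histone state, regions without marks (naive) were at 1.63 ± 0.43 and facultative heterochromatin, which carries Polycomb marks, at 1.37 ± 0.070 (range 1.31 to 1.44). Active enhancers were at 0.883 ± 0.16 and promoters at 0.814 ± 0.41, both with ranges that include 1. Against the deeper library before Dox alone promoters were at 1.22.

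Genes of the PrE stood above those of pluripotency. The sets are the regions whose nearest start site is that of a listed gene within 50 kb. A gene is called higher when all 4 library pairs were above 1, and lower when all were below. Among the 11171 genes with such regions, 24.5% were higher and 13.6% lower. Of the 28 PrE genes with regions (30 listed, 197 regions), 21 were higher and 0 lower. Their regions together held 0.692 and 0.964 before Dox and 1.15 and 1.21 at day 4, a ratio of 1.43 ± 0.34 (SD, range 1.20 to 1.75). Of the 28 pluripotency genes (29 listed, 162 regions), 1 was higher and 9 lower, with 0.841 and 1.13 before Dox and 0.830 and 0.911 at day 4, a ratio of 0.882 ± 0.19. With each chromosome centred on its own ratio, 19 PrE genes were higher and 1 lower, and 1 and 16 pluripotency genes, beside 19.6% and 19.7% of all genes. The lists were drawn up with earlier results of these data known.

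Among the transcription factors, Gata4, a partner of GATA6 in the endoderm, had 0.659 and 0.821 RPM per kb before Dox and 1.13 and 1.23 at day 4 over 13 regions, a ratio of 1.59. Sox17 went from 0.573 and 0.762 to 1.14 and 1.07 over 5 regions, a ratio of 1.65. Foxa2, a forkhead factor of endoderm, was at 1.30. In each of these 3 genes day 4 lay above both libraries before Dox. Sox7 was at 0.723 with a range of 0.530 to 1.04. Relative to its chromosome Sox7 was at 0.658 with a range of 0.530 to 0.858, and it is the 1 PrE gene counted above as lower there. Gata6 was at 0.862. The 10 regions of Gata6 itself held 0.637 and 3.08 before Dox and 1.38 and 1.83 at day 4, so the libraries before Dox lie on either side and no direction can be given. Reads of the cassette, which holds Gata6 coding sequence, cannot be told apart there from those of the gene.

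Several listed genes encode the basement membrane, a main product of parietal endoderm. Col4a2, a chain of collagen IV, held 0.763 and 1.25 before Dox and 2.06 and 2.05 at day 4 over 6 regions, a ratio of 2.04 (range 1.64 to 2.70), and 1.72 relative to its chromosome. Its neighbor Col4a1 was at 1.86 and at 1.57 relative to the chromosome, which is chromosome 8. Lama1, a laminin chain on another chromosome, held 0.725 and 0.799 before Dox and 1.33 and 1.20 at day 4 over 12 regions, a ratio of 1.66. Lamb1 was at 1.78, Lamc1 at 1.31 and Sparc, a collagen-binding matrix protein, at 1.39, each higher in all pairs. Of the nidogens, which link laminin to collagen IV, Nid2 was higher in all pairs at 1.31, and Nid1 was at 0.989 with a range of 0.510 to 1.4995. Of the endocytic apparatus of visceral endoderm, Cubn held 0.540 and 0.448 before Dox and 1.03 and 0.802 at day 4 over 7 regions, a ratio of 1.86. Lrp2 was at 1.57 and the adaptor Dab2 at 1.67. Amn, the partner of cubilin, was at 1.30 in a single region, with a range of 0.575 to 2.99 that includes 1. The receptor Pdgfra was at 1.47 and the WNT antagonist Dkk1 at 1.63.

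Esrrb, an orphan nuclear receptor of naive pluripotency, held 1.04 and 1.45 RPM per kb before Dox and 0.696 and 0.641 at day 4 over 13 regions, a ratio of 0.538 (range 0.443 to 0.669). Sox2, the partner of OCT4, held 0.714 and 0.908 before Dox and 0.522 and 0.313 at day 4, a ratio of 0.515. Lefty2 was at 0.514, Tdgf1 at 0.644 and Tbx3 at 0.724, again with day 4 below both libraries before Dox. Nanog (1.17 and 1.63 before Dox, 0.838 and 1.52 at day 4, ratio 0.842) and Pou5f1 (0.887) overlapped. Klf5, at 1.27, was the 1 gene of the list that was higher. For feeder fibroblasts, 23 regions of 11 genes (15 listed) held 0.674 and 0.460 before Dox and 0.453 and 0.528 at day 4, a ratio of 0.865 ± 0.25, with 0 genes higher and 2 lower, Col3a1 (0.549) and Fn1 (0.642). Widely expressed genes (8 of 14, 32 regions) were at 1.07 ± 0.36, with 0 in either direction. What feeder chromatin adds to the other values was not tested.

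**Figure D4:**
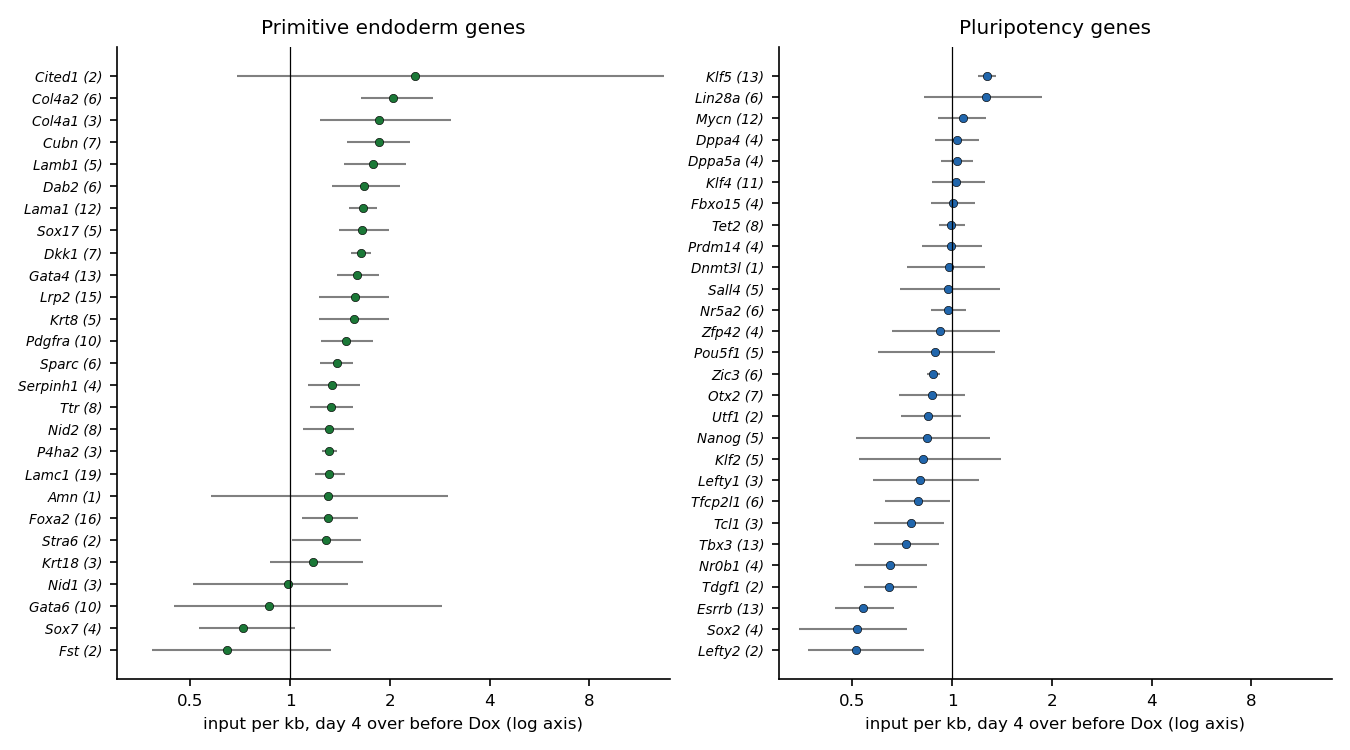
Ratio of input at day 4 to before Dox (horizontal log axis) for genes of the PrE and pluripotency lists with regions within 50 kb, with the number of regions in parentheses. Dots are ratios and lines run from the lowest to the highest of the 4 library pairs; the lines of 20 of the PrE genes drawn lie wholly above 1 and those of 9 pluripotency genes wholly below.

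Single regions seldom passed a test. In a limma-voom fit on the recovered reads of all 42403 regions, day 4 against before Dox gave 1 region with adjusted p under 0.05 that was higher (0.00236% of regions) and 0 that were lower (0%), with 4605 at an unadjusted p under 0.05. The median log2 difference of all regions was 0.20 in this fit and -0.02 with scaling in GC bins. That scaling sets the level of each bin equal in all libraries, so a small median was given by it. The fits at 8 h, 16 h, day 1 and day 2 gave 0 (0% in each direction), with 3060, 3528, 2511 and 3125 at an unadjusted p under 0.05. All these contrasts share the libraries before Dox. Past 2-fold higher and lower without a test were 6.29% and 7.07% at 8 h, 9.86% and 13.9% at 16 h, where the libraries are shallowest, 4.81% and 1.34% at day 1, and 6.85% and 2.59% at day 2. The median standard error of a region at day 4 was 0.67 on the log2 scale, so that a 2-fold change of a typical region is not usually detectable at this depth.

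The region that passed lies in an intron of Slc7a6, an amino acid transporter gene, at chr8:106171593-106174182 (mm10, 2589 bp), which was closed before Dox and in the SOX17 class. It held 37 and 19 reads before Dox and 111 and 41 at day 4, or 0.540 and 0.722 against 2.43 and 1.79 RPM per kb. The limma-voom log2 difference was 1.85 ± 0.31 (SE, adjusted p = 0.00767). It is on chromosome 8, which at day 4 was at 1.39 and 1.34 times the deeper library before Dox. The shallower library before Dox was at 1.48 times. With libraries scaled within chromosomes the difference was 1.45 with an adjusted p of 0.222 by limma-voom. With scaling in GC bins it was 1.31, adjusted p = 0.13 by limma-voom. Its GATA6 signal was 2.78 RPM before Dox and 60.6 at day 4, and SOX17 reached 84.3 RPM at day 4.

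The 10 regions with the largest gains, from 1892 that were wide and covered enough, had folds between 2.55 and 5.61 and did not overlap between the groups in any case, beside the 23.8% of all regions. Eligibility used the same change, so this is a description. Of these, 8 were in the highest GATA6 quintile, 7 in the SOX17 class and 6 closed, beside 20.0%, 44.5% and 61.3% of all regions, and their GC content was 43.0% to 54.6%. The Irf2bp2 region (chr8:126609805-126610258), near a transcriptional co-repressor gene, came first with 0.750 and 1.09 before Dox and 2.999 and 3.24 at day 4. The Col4a2 region (chr8:11308478-11310403), whose centre is printed above, held 52 and 30 reads before Dox and 106 and 61 at day 4, or 1.02 and 1.53 against 3.12 and 3.58 RPM per kb. Its limma-voom log2 difference was 1.48 ± 0.29 (SE, adjusted p = 0.0783), with adjusted p = 0.00849 in GC bins and 0.254 within chromosomes, both by limma-voom. GATA6 there was 1.47 RPM before Dox and 49.1 at day 4. At the Rcc2 region (chr4:140690884-140691236) levels were 0.858 and 0 before Dox and 1.93 and 2.89 at day 4. The 0 rests on a shallow library and the fold of 5.61 with it. The others were near Myo6, Smim14, Pacsin2, Arhgap9, Thop1, Tbc1d9b and Ubr2.

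The 10 largest losses came from 991 eligible regions. Of these, 6 were in the highest GATA6 quintile and 5 in the SOX17 class, beside 20.0% and 44.5% of all regions. Accessible were 8 and closed 0, beside 7.43% and 61.3%. The highest GATA6 quintile was above its share among the gains and among the losses, so this was not particular to gain. All 10 were higher in the shallower library before Dox than in the deeper, by 2.49 to 14.2 times. Their GC content was 57.0% to 77.9%, and 6 lay within 1 kb of a start site, beside 2784 of all 42403 regions. Tmem131 (chr1:36939698-36940094) held 1.91 and 8.45 before Dox and 1.43 and 1.71 at day 4, and Slc52a3 (chr2:152029394-152029697), a riboflavin transporter gene, 2.49 and 6.49 before Dox and 0.934 and 1.12 at day 4. In 4 of the 10 both libraries of day 4 were below both before Dox, beside 14.1% of all regions. Against the deeper library alone, 6 of the 10 stayed below 1 and 4 were above. The first of them, a coding exon of Gata6, held 0.948 and 13.5 before Dox and 2.98 and 4.03 at day 4. The rest were near Fam92b, Ciart, Ywhah, Haus4, Hspbp1, Cmip and Dgka. The adjusted p by limma-voom ran from 0.0783 to 0.344 over the 10 gains and from 0.316 to 0.793 over the 10 losses.

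In XEN cells the ratio to before Dox was 0.816, 0.932, 1.12, 1.27 and 1.48 from the lowest to the highest GATA6 quintile. Against ES cells before Dox 13.6% of regions were past 2-fold higher and 6.54% past 2-fold lower, and limma-voom called 235 higher (0.554%) and 14 lower (0.033%) at adjusted p under 0.05, with 6253 at an unadjusted p under 0.05. Of the 235, 173 were in the highest GATA6 quintile, 211 in the SOX17 class and 190 closed, where those classes hold 20.0%, 44.5% and 61.3% of all regions. Chromosomes moved with these calls: chromosome 19 held 47 of them, chromosome 16 39 and chromosome 6 38, and the input of these chromosomes in XEN cells was 1.61 and 1.61, 1.58 and 1.54, and 1.33 and 1.31 times that of the deeper library before Dox. With libraries scaled within chromosomes the calls were 1 higher and 0 lower, with scaling in GC bins 74 and 57, and with scaling to reads on the regions 40 and 13. The median log2 difference of all regions was 0.29 with scaling to library size and -0.04 in GC bins, where a small median is again given by the scaling. The contrast between the highest and lowest SOX17 quintiles, 1.84 for XEN cells over before Dox, was 1.86 with each chromosome centred.

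**Figure D5:**
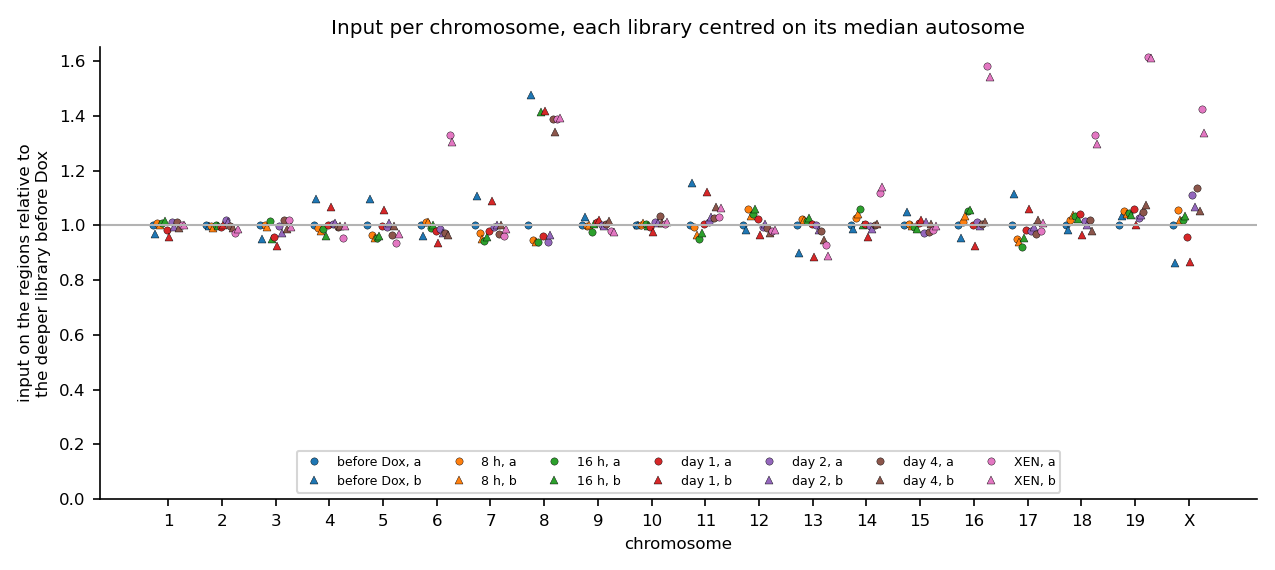
Input on each chromosome relative to the deeper library before Dox (vertical axis, ratio, centred on the median autosome) for each library. Circles are the deeper and triangles the shallower library of a group; chromosome 8 is at 1.34 to 1.48 in 5 ES libraries, and chromosomes 16 and 19 are at 1.54 to 1.61 in XEN cells.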

How the data were processed

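Input chromatin was sequenced in 15 libraries of 7 groups, taken from the labels. The authors trimmed reads with cutadapt, aligned them to mm10 with bowtie2, removed duplicates by unique molecular identifiers, and counted reads on GATA6 regions whose peaks were called with MACS2. The deposited values are RPM, pooled by the authors into a column per group. Motif score columns deposited by the authors were used only for the position of each best GATA6 match, to check the build: 81.1% of 38052 had GATA at base 5, and 0.0158% when moved by 1 base.

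Each column was solved for whole reads in 2 libraries (42403 of 42403 regions, tolerance 2e-06 RPM, and 6e-06 before Dox, where 42377 had a single solution). The lowest value in every column was taken as 1 read added to each library by the authors, and was subtracted. The design had foreseen pooled columns without replicate values. The recovery and the limma-voom fits (limma 3.58.1, R 4.3.3, scaled to library size, Benjamini-Hochberg adjustment) were added after the data were seen, because whole reads came out. In data simulated for day 4 against before Dox over 42403 regions, 49 of 100 regions made 3-fold higher and 5 of 100 made 3-fold lower were called, with 1 false call. The changed regions were drawn from those above the median level. The simulation assumed its dispersion and left out the differences in GC content and chromosome 8 between libraries, so these rates need not hold for the real data. Folds per region used a pseudocount of 0.0849 RPM, percentile 5 of the non-zero input values. Quintiles are by rank of ChIP RPM per kb. Course p-values are from 100000 permutations over libraries. Named regions were the 10 largest gains and 10 largest losses of RPM per kb at least 300 bp wide, past 2-fold and above the median summed RPM, plus the called region. The members and the gene lists were chosen with earlier results of these data known. The 14 columns of per-sample values that match no sample here, and columns of the authors' siRNA comparison, were not used. Which library of a group carries which replicate number cannot be told from the columns. A gene of the PrE list, which its counts include, and a run of regions are not reported here.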

Additional observations from a re-analysis of the deposited data

How the results depend on the processing

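The contrasts by GATA6 (1.67), SOX17 (1.72), accessibility (closed over accessible, 1.83) and both together (3.01) kept their direction under every alternative run, and moved by less than the spread between libraries under all but 1. With the deposited columns as they stand, in which the added reads and the 8 h and 16 h libraries remain, the joint contrast was 2.22. The spread was made from the values of single libraries. With 2 libraries in a group, leaving out 1 gives one of those values. Such runs had to stay within the spread and could not test these contrasts. The spread of the accessibility contrast was wide, 0.72 on the log2 scale. That contrast ran from 1.20 with these columns to 2.44 without the deeper library before Dox. It was 1.27 without the shallower one and 1.29 against the mean of before Dox, 8 h and 16 h. The alternatives gave 123 values for the contrasts, the all-region and XEN ratios and the counts of regions. Of these, 102 stayed within their spread or within 1.5 times and 21 did not. These are not 123 separate checks. The mean of before Dox, 8 h and 16 h gave the same values as the deposited columns less the added reads. Both were counted. So were the runs without a library, which for the contrasts, the all-region ratio and the XEN ratio had to stay within the spread. Among the contrasts and XEN ratios 0 reversed. Counts of regions have no direction to reverse, and the all-region ratio, within its spread of 1, could not be scored as reversed. Most of the 21 were shares of regions past a fold. Higher regions (10.3%) were 0.0684% and 17.9% with a pseudocount 10 times larger and smaller, 25.7% at 1.5-fold, 5.62% against the mean of before Dox, 8 h and 16 h and also with the deposited columns less the added reads, and 1.81% with those columns as they stand. Lower regions (5.33%) were 0.0401%, 9.64% and 14.9% under the first 3 of these and 1.88% under the last. Leaving out each library gave 9.27% to 23.6% higher and 4.71% to 11.95% lower, the highest shares being those without the deeper library before Dox (23.6% higher) and without the deeper library of day 4 (11.95% lower). Limma-voom calls higher (1) were 2 when scaled to reads on the regions, 0 within chromosomes and 0 to 3 without each library, and calls lower (0) were 0 to 75, the 75 without the deeper library before Dox. Where a library was left out, the lone one of its group was assumed to vary like the others. The ratio of accessible regions alone turned from 0.752 to 1.04 without the shallower library before Dox. The alternatives on added reads, GC, chromosome 8, pooling, XEN binding and limma-voom were chosen after the data were seen. No paired analysis was possible because the columns carry no replicate numbers. Depth limits single regions, with a median of 2 to 10 reads per library.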

Other observations

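Runs of 10 neighboring regions (42222 runs) were ranked, after the data were seen, by input in XEN cells over day 4 relative to the whole chromosome, for which the median run stood at 0.990. The lowest run lay at Col4a2, chr8:11245437-11310403, at 0.140 (range over library pairs 0.113 to 0.166). Its input was 0.719 and 1.14 RPM per kb before Dox, 1.91 and 1.99 at day 4, and 0.332 and 0.234 in XEN cells, below every ES library. GATA6 ChIP in this run was in XEN cells 0.274 times that at day 4. The Col4a2 region with the second largest gain of input in the ES course lies in this run. The highest run lay at Enox1 and Dnajc15, chr14:77543462-77777367, at 2.12 (range 1.995 to 2.25), with 0.477 and 0.546 at day 4 and 1.18 and 1.32 in XEN cells, and GATA6 there was 4.95 times that of day 4.

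For day 4 over before Dox, one of the lowest runs lay at Pde7b, Ahi1 and Myb (chr10:20525807-21194287), at 0.399 (range 0.377 to 0.422), with 0.850 and 0.923 before Dox, 0.398 and 0.388 at day 4 and 0.436 and 0.646 in XEN cells. The highest runs rested on a low value in the shallower library before Dox: at Penk and Impad1 (chr4:4428774-4882413) levels were 0.305 and 0.0945 before Dox and 0.642 and 0.608 at day 4, a value of 2.86 with a range of 1.66 to 7.59.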
